A study of Danio rerio with 18 samples.

Results

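Whole brains of homozygous mfn2 mutant zebrafish (Hom) were compared with those of their heterozygous siblings (Het). The comparison covers the 12 libraries whose titles end in Hom or Het, 6 of each, out of 18 in the series. The other 6 are wild-type siblings (WT), which enter the fit and stand beside the results as a further set of values. All fish came from crosses between carriers of the hu3528 allele of mfn2, which the series title calls a loss-of-function mutation. Hom fish carry that allele on both copies of the gene, Het fish on 1 copy and WT fish on none. There are 6 families, each from 1 mating of its own pair of parents, and each family gave 1 library per genotype. A library is a pool of 4 whole brains, 2 female and 2 male, taken at 4 months of age from 1 tank. Siblings were genotyped at 2.5 months and then kept in 1 tank per genotype, so genotype and tank cannot be told apart within a family. The submitters describe homozygotes as less fit than their siblings, and every tissue of these fish carries the mutation.

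Mitofusin 2 sits in the outer membrane of mitochondria, where it draws neighbouring organelles together so that their membranes fuse. It is also known as a contact point between mitochondria and the endoplasmic reticulum. In people, mutations of MFN2 cause a form of Charcot-Marie-Tooth disease, in which long axons degenerate. Cells whose mitochondria work poorly are known to signal through the integrated stress response, in which transcription factors of the ATF family switch on genes for amino acid supply and for damage control.

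The deposited counts per library ran from 21945070 to 29323144 over the Hom and Het pools. Brain markers were present in both genotypes. The neuronal gene elavl4 averaged 650.3 ± 102 normalized CPM (counts scaled to a common library size) in Hom pools and 698 ± 38.3 in Het pools (SD, n = 6 each), and the astroglial gene gfap averaged 104 ± 44.6 in Hom pools and 120.3 ± 25 in Het pools. In each library, log2 deviations from the median library were taken over 12976 genes, and 3 pools stood apart. Their deviations had an SD of 1.09 in the Hom pool of family 3, 0.729 in the Het pool of family 1 and 0.671 in the Het pool of family 3, against 0.202 to 0.302 in the remaining 15. Deviations of these Het pools of families 1 and 3 correlated at 0.87 with each other. Each correlated at −0.63 with those of the Hom pool of family 3, so that Hom pool deviated the opposite way to these Het pools. Whether these deviations follow the difference between Hom and Het in the other families was not tested. The same Hom pool held 258.1 normalized CPM of an oocyte list of 23 genes, while the other Hom pools ranged over 18.5 to 23.8 and Het pools over 18.6 to 21.5. A list of 19 skeletal muscle genes summed to 20.8 to 36.1 normalized CPM in Hom pools, to 1452 in the Het pool of family 3, to 118 in the Het pool of family 1 and to 15.8 to 54.9 in the other Het pools. In WT pools it summed to 17.9 to 118.5, so the Het pool of family 1 lay within the WT range. Counts below are given with all libraries, followed by the count without these 3 pools wherever they differed.

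The transcript of mfn2 was measured first, because it checks the labels. Hom pools had 25.4 to 34.1 (median 28.7) normalized CPM of mfn2 and Het pools 67.8 to 117 (median 78.3). The genotypes did not overlap, and the highest Het value was that of family 2. WT pools had 75.2 to 140.2 (median 128), with the lowest value, 75.2, again in family 2, so in that family the library labelled WT lay below the library labelled Het. Whether the Het and WT libraries of family 2 were exchanged was not tested, and every Hom minus Het or Het minus WT value here rests on the labels as given. The log2 fold change of Hom over Het was −1.52 ± 0.17 (SE), lower in 6 of 6 families, with an adjusted p of 4.86e-04 in the quasi-likelihood test of edgeR. Every adjusted p below comes from that test, after adjustment by the Benjamini-Hochberg method over all genes tested, and values in brackets after a gene are log2 fold changes of Hom over Het, with their SE where one is given. Het minus WT was −0.54 for mfn2 and did not pass (edgeR adjusted p = 0.903).

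**Figure D1:**
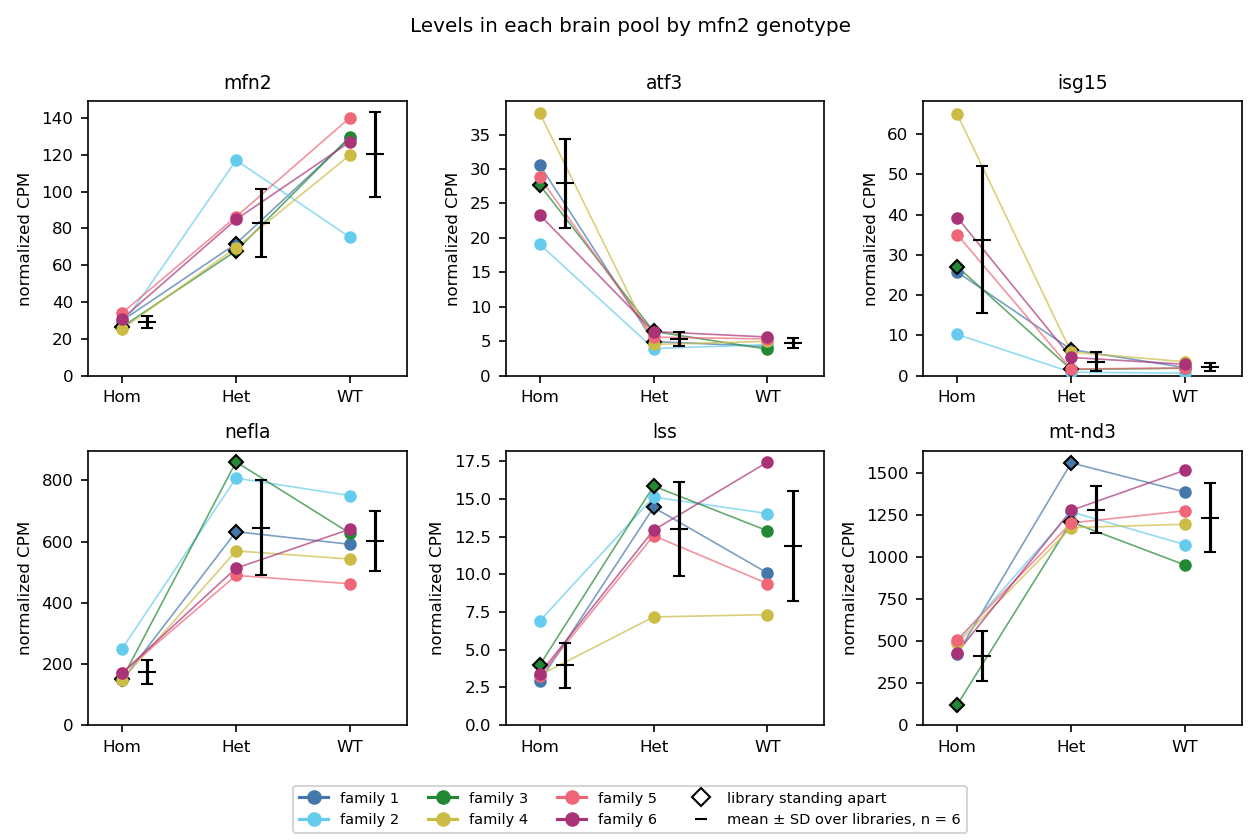
Normalized CPM (vertical axes, from 0) of mfn2, atf3, isg15, nefla, lss and mt-nd3 in each brain pool, with Hom, Het and WT from left to right. Lines join the pools of a family, diamonds mark the 3 pools that stood apart, and black bars give mean ± SD over 6 libraries. For each of the 6 genes the Hom points do not overlap the Het points. For lss they come close, at 6.91 for the highest Hom pool and 7.17 for the lowest Het pool.

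Between Hom and Het brains, 406 of 20353 genes tested differed (1.99%), 243 of them higher in Hom (1.19%) and 163 lower in Hom (0.801%). The median log2 fold change was 1.06 over the higher genes and −0.72 over the lower genes, against 0.06 over all genes tested. Over 2-fold changes were seen for 134 higher and 49 lower genes. The direction was the same in 6 of 6 families for 233 of the 243 higher and 159 of the 163 lower genes, and in 5 of 6 for the rest. These genes were picked by a test on the same libraries with family as a term, so this agreement is not evidence of its own. Levels did not overlap between genotypes for 149 of the higher and 104 of the lower genes, where 3.26% of all genes tested lay apart, 1.3% higher and 1.96% lower. The count moved with single libraries. It was 203, 662, 197, 227 and 247 without the Hom pool of family 1, 3, 4, 5 or 6, and 218, 230, 195 and 215 without the Het pool of family 1, 2, 4 or 5. The lower genes also dropped to 102 without the Hom pool of family 2 and to 90 without the Het pool of family 3. Without the 3 pools that stood apart, 981 of 20586 genes passed (4.77%), 604 higher (2.93%) and 377 lower (1.83%). Those 604 and 377 held 214 of the 243 higher and 133 of the 163 lower genes, and 0 reversed. A fit of the 12 Hom and Het libraries alone passed 46 genes, 33 higher and 13 lower, and DESeq2 on all libraries passed 1626, 789 higher and 837 lower. In families 4, 5 and 6 alone, which hold none of the 3 pools, 446 of 20444 genes passed (2.18%), 316 higher (1.55%) and 130 lower (0.636%).

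**Figure D2:**
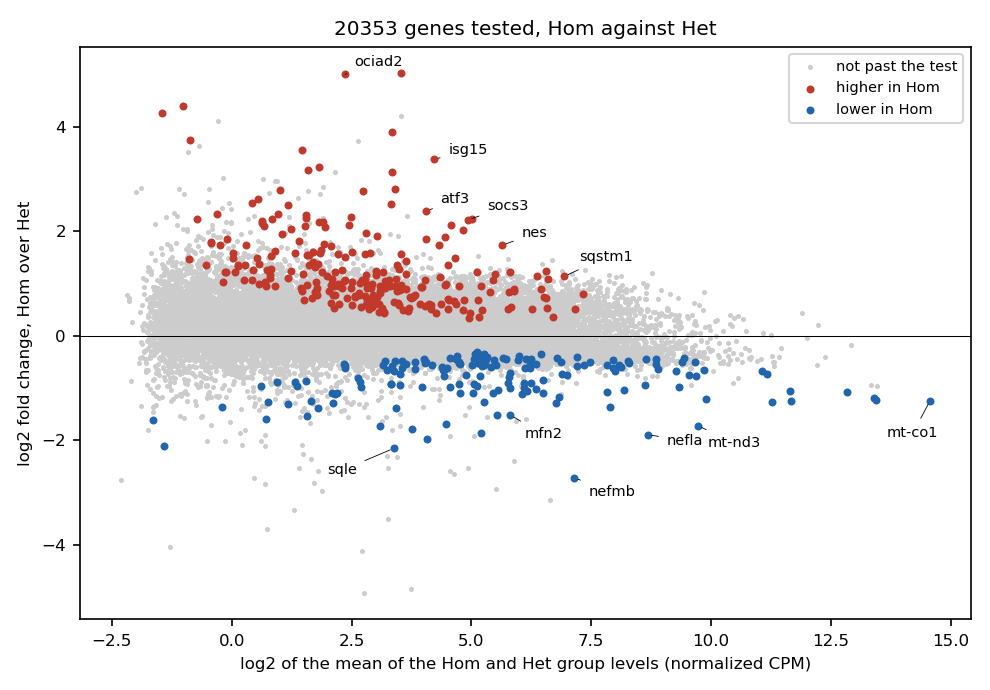
Log2 fold change of Hom over Het (vertical axis) against the log2 of the mean level in normalized CPM (horizontal axis) for 20353 genes, 1 point each. Red points are the 243 genes higher in Hom, blue points the 163 lower in Hom, and grey points did not pass.

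Het brains differed from WT brains at 0 of 20353 genes by edgeR (0.0%). An unadjusted p under 0.05 was seen for 524 genes there, against 4428 between Hom and Het brains. The comparison of Het with WT includes the Het pools that stood apart and is given with all libraries only. Hom brains differed from WT brains at 390 genes (1.92%), 304 higher (1.49%) and 86 lower (0.423%). Over the 243 genes higher in Hom than in Het, the median log2 fold change was 1.06 for Hom minus WT and −0.00 for Het minus WT. Over the 163 lower genes these medians were −0.57 and 0.11. Hom against Het and Hom against WT share the Hom libraries, so their likeness is not evidence of its own, and Het against WT is the test of how far they differ. Single genes are given here with Hom minus Het first, Hom minus WT second and Het minus WT last, all as log2 fold changes. The stress factor atf3 was at 2.39, 2.54 and 0.15, the neurofilament gene nefla at −1.89, −1.8 and 0.09, and the sterol enzyme lss at −1.72, −1.57 and 0.15. The mitochondrially encoded mt-nd3 was at −1.72, −1.64 and 0.08, and the interferon-induced isg15 at 3.38, 3.98 and 0.60. The Het minus WT value passed for none of these 5 genes. The WT levels themselves were 3.85 to 5.62 (median 4.75) normalized CPM for atf3, 462 to 751 (median 609) for nefla and 7.33 to 17.4 (median 11.5) for lss. They were 951 to 1514 (median 1233) for mt-nd3 and 0.634 to 3.47 (median 1.97) for isg15.

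Of 28 genes of the integrated stress response, 5 were higher in Hom brains and 0 lower, against 1.19% and 0.801% of all genes. The median log2 fold change of the list was 0.25, against 0.06 over all genes. The transcription factor atf3, which cells switch on under many stresses, had 19.1 to 38.1 (median 28.2) normalized CPM in Hom pools and 3.95 to 6.43 (median 5.28) in Het pools. Every Hom pool held at least 19.1 and every Het pool at most 6.43, and atf3 had the smallest p of the 243 higher genes (2.39 ± 0.16, edgeR adjusted p = 2.71e-05). The pseudokinase trib3, a target of ATF4 that feeds back on it, was at 24.6 to 45.6 (median 38.9) in Hom pools, against 10.4 to 18.9 (median 12.4) in Het pools (1.5 ± 0.15, edgeR adjusted p = 2.75e-04). The stress-induced sestrin sesn2 (0.75), the bZIP factor cebpb (0.50) and the asparagine synthetase asns (0.61) rose by less. The levels of sesn2 did not overlap, and those of cebpb and asns did. The count was 9 higher and 0 lower without the 3 pools, against 2.93% and 1.83% of all genes there.

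Among 18 enzymes of serine synthesis and one-carbon supply 1 was higher and 0 were lower, against 1.19% and 0.801% of all genes. The median was 0.11, and 2 were higher without the 3 pools, against 2.93% of all genes. The member higher with all libraries was mthfd1l, the mitochondrial enzyme that releases formate from folate. It had 3.39 to 5.33 (median 4.92) normalized CPM in Hom pools and 0.577 to 1.44 (median 1.13) in Het pools (2.1 ± 0.28, edgeR adjusted p = 0.00166). All 6 Hom pools lay above all 6 Het pools. Among 19 aminoacyl-tRNA synthetases 1 was higher, against 1.19% of all genes, and the median was 0.00. It was eprs1, which charges glutamate and proline (0.51 ± 0.11). Of these synthetases 7 were higher without the 3 pools, against 2.93% of all genes, with a median of 0.23. Within families, the median over the synthetases was −0.73 in family 3 and 0.07 to 0.32 in the other 5.

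Of 32 genes of growth arrest and apoptosis, 9 were higher in Hom brains and 1 was lower, against 1.19% and 0.801% of all genes. The median was 0.21 with all libraries and 0.27 without the 3 pools, where 15 were higher and 1 lower, against 2.93% and 1.83% of all genes. The ribosomal protein paralog rps27l had 29.4 to 75.5 (median 41.6) normalized CPM in Hom pools, against 7.48 to 15.5 (median 10.4) in Het pools (2.02 ± 0.22, edgeR adjusted p = 4.95e-04). The genotypes did not overlap, and the highest Hom value was that of family 4. The cell cycle inhibitor cdkn1a was at 1.67 to 4.41 (median 2.33) in Hom pools and 0.64 to 1.51 (median 0.968) in Het pools (1.28 ± 0.23, edgeR adjusted p = 0.0135). Growth arrest genes rose beside it: gadd45b (ENSDARG00000013576) by 1.29, a second gadd45b (ENSDARG00000027744) by 0.52 and gadd45a (ENSDARG00000043581) by 0.82 on the log2 scale. The pro-apoptotic gene bbc3 (0.53) and the antiproliferative gene btg2 (0.84) rose as well, and sesn2, given above, is also on this list. The member that fell was tigarb, a regulator of glucose breakdown (−0.62 ± 0.13), and its Hom pools lay below all Het pools.

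**Figure D3:**
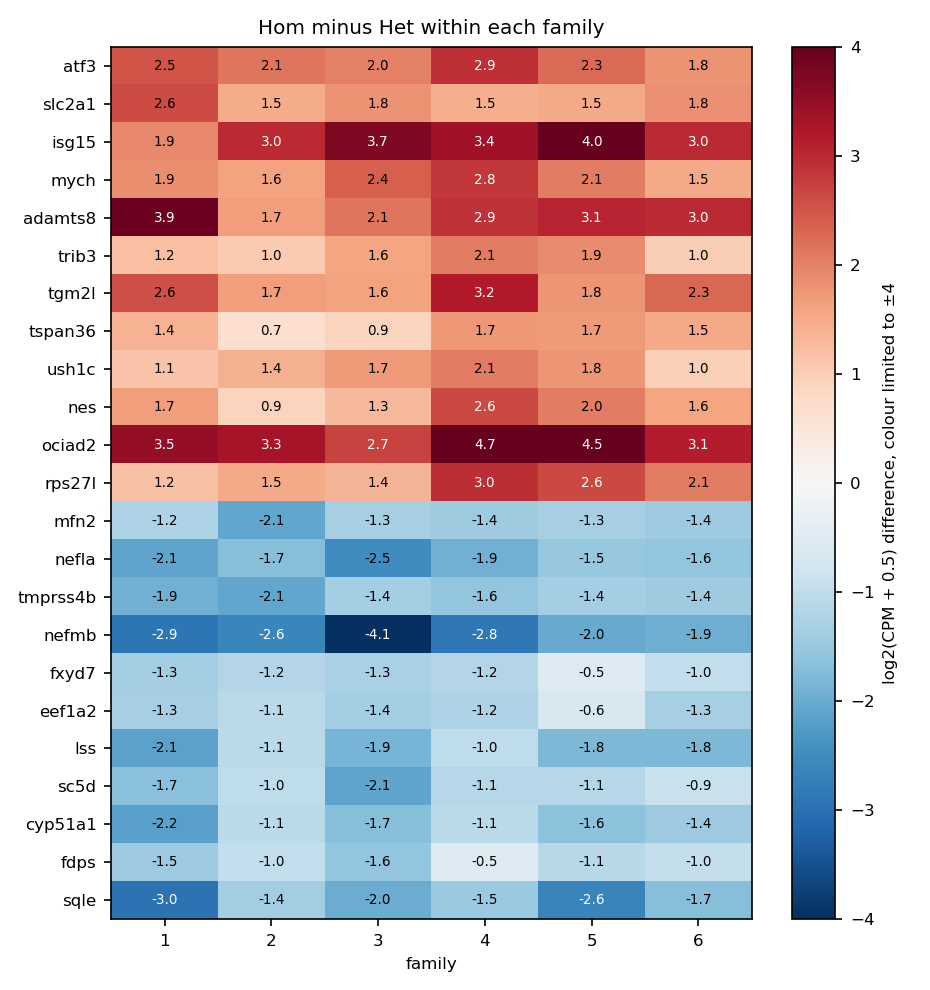
Difference of Hom minus Het in log2(normalized CPM + 0.5) within each of 6 families (columns) for the 12 higher (upper rows) and 11 of the 12 lower genes (lower rows) of smallest p. Red is higher in Hom, blue lower in Hom, and all 23 genes moved the same way in 6 of 6 families. They were picked among genes that passed and moved the same way in at least 5 of 6 families, leaving out clone names.

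AP-1 and other early response genes were higher for 5 of 36 members and lower for 0, against 1.19% and 0.801% of all genes. The list median was 0.32. The AP-1 subunit gene fosl1 had 5.75 to 13.2 (median 8.87) normalized CPM in Hom pools and 1.05 to 3.04 (median 1.99) in Het pools, with no overlap (2.28 ± 0.26, edgeR adjusted p = 6.27e-04). The MAP kinase phosphatases dusp2 (0.91) and dusp1 (0.95), the AP-1 partner junb (ENSDARG00000074378, 1.23) and btg2 were the others. In the Hom pool of family 3 junb reached 88.9, against 28.1 to 48.9 in the other Hom pools. Leaving out the 3 pools gave 8 higher and 1 lower, against 2.93% and 1.83% of all genes, and a median of 0.13.

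Genes of Jak and Stat3 cytokine signalling were higher for 7 of 25 members and lower for 0, against 1.19% and 0.801% of all genes. Without the 3 pools 8 were higher and 1 lower, against 2.93% and 1.83%. The medians were 0.32 with all libraries and 0.31 without the 3 pools. The feedback inhibitor socs3 (ENSDARG00000025428) had 38.8 to 60.6 (median 48.6) normalized CPM in Hom pools, against 4.38 to 25.9 (median 11.2) in Het pools (2.22 ± 0.27, edgeR adjusted p = 9.52e-04). The lowest Hom pool lay above the highest Het pool, and the spread among Het pools was wide. Its paralog socs3 (ENSDARG00000026611) rose by 0.93, the Myc family gene mych by 2.13, stat3 by 0.61 and the shared receptor il6st by 0.56 on the log2 scale. The secreted ligand il11b was near the floor in Het pools, with 5 counts over 6 libraries and 0 in 3 of them, against 112 counts over 6 Hom libraries. At such counts the size of the change depends on the prior count, and the levels were 0.452 to 0.957 normalized CPM in Hom pools and 0 to 0.109 in Het pools.

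Interferon response genes were higher for 5 of 34 members and lower for 0, against 1.19% and 0.801% of all genes. The list had a median of 0.47. Within families its median was −0.06 in family 1 and −0.04 in family 3, but 0.30 to 0.86 in the other 4. Its leading gene, isg15, encodes a ubiquitin-like protein that interferon induces. Hom pools had 10.2 to 65 (median 31.1) normalized CPM of isg15 and Het pools 0.868 to 6.49 (median 3.11) (3.38 ± 0.27, edgeR adjusted p = 5.79e-05). The genotypes did not overlap, while each varied several-fold among its own pools. The RNA sensor dhx58 (1.82) and the interferon regulatory factors irf3 (1.36) and irf1b (0.93) were among the other members that rose. In family 1 irf1b went the other way, at 17.6 in the Hom pool and 21.6 in the Het pool. Leaving out the 3 pools gave 12 higher and 0 lower, against 2.93% and 1.83% of all genes, with a median of 0.71.

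Microglia and macrophage markers were higher in Hom brains for 6 of 38 members and lower for 0, against 1.19% and 0.801% of all genes. The list median was 0.47. In pooled tissue, more cells of a type and more RNA per cell cannot be told apart. The chemokine cxcl18b had 3.56 to 9.33 (median 5.85) normalized CPM in Hom pools, against 0.6 to 2.33 (median 1.27) in Het pools (2.17 ± 0.34, edgeR adjusted p = 0.00507). The cytokine tnfb was at 1.89 to 4.51 (median 2.18) in Hom pools and 0.44 to 1.45 (median 0.881) in Het pools (1.54 ± 0.26), and the scavenger receptor marco at 13.3 to 15.6 (median 14.7) in Hom pools and 5.08 to 11.1 (median 7.84) in Het pools (0.90 ± 0.17). All 3 had Hom pools wholly above Het pools, and so had the granulin grna (0.95 ± 0.16). The transporter slc7a7 (0.78) and the galectin lgals9l1 (0.85) rose in 5 of 6 families. Summed over all 44 matched markers, the Hom pool of family 3 held 1137 normalized CPM, while the other Hom pools ranged over 2347 to 3216 and Het pools over 1402 to 2162. The median of the list was −0.20 in family 3 and 0.33 to 1.06 in the other 5 families. Without the 3 pools, 19 of the members were higher and 0 lower, with a median of 0.71, against 2.93% of all genes higher there.

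Other blood and vessel lists gave few calls with all libraries. Of 21 lymphocyte markers 1 was higher, against 1.19% of all genes, and the median was 0.47. It was the chemokine receptor ccr9 (ENSDARG00000055186, 1.61 ± 0.26), whose levels overlapped between genotypes. Lymphocyte markers summed to 1171 normalized CPM in the Hom pool of family 3, while the other Hom pools ranged over 205.5 to 240.4 and Het pools over 120.4 to 238.7. The T cell factor gene gata3, chosen after its values were seen, held 1041 of that sum. Of 9 neutrophil and mast cell markers 0 passed in edgeR, with 1 higher at an unadjusted p under 0.05, where 10.5% of all genes were higher. Of 9 erythrocyte markers 0 passed, with 7 lower at an unadjusted p under 0.05, where 11.3% of all genes were lower. The erythrocyte median was −0.54 with all libraries and −0.19 without the 3 pools, where 1 was lower, against 1.83% of all genes. Erythrocyte markers summed to 430.8 to 3611 normalized CPM in Hom pools and to 1188 to 4585 in Het pools. Among 35 endothelial and mural markers 3 were higher and 0 lower, against 1.19% of all genes higher: plvapb, known from leaky vessels (1.25 ± 0.28), and the glucose transporter slc2a1 as ENSDARG00000007412 and ENSDARG00000001437. Of the same markers 6 were higher without the 3 pools and 1 in families 4 to 6, against 2.93% and 1.55% of all genes. Of 19 collagen and connective tissue genes 1 was higher, against 1.19% of all genes. That gene was fibronectin fn1 (ENSDARG00000006526, 0.68 ± 0.13), and its levels overlapped between genotypes.

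Transcripts of 4 neurofilament genes were lower in Hom brains. Neurofilaments are the intermediate filaments that fill large axons and set their calibre. The light chain gene nefla had 146 to 250.2 (median 161) normalized CPM in Hom pools and 489.6 to 861 (median 601) in Het pools (−1.89 ± 0.13, edgeR adjusted p = 2.71e-05). Every Hom pool lay below every Het pool, and the highest Hom value was that of family 2. The medium chain gene nefmb was at 17.6 to 55 (median 34.4) in Hom pools, against 136 to 334 (median 239.9) in Het pools (−2.72 ± 0.24, edgeR adjusted p = 9.16e-05). A further medium chain gene, nefma (−0.98 ± 0.12), and the light chain gene nefl (−1.28 ± 0.20) fell too, again with no overlap. The synuclein sncg (ENSDARG00000109715, −0.50) and the microtubule-associated protein map1b (−0.47) fell by less. That makes 6 of 29 neurofilament and axon genes lower and 0 higher, against 0.801% and 1.19% of all genes. The median of the list was −0.23 with all libraries. It was −0.09 without the 3 pools, where 8 members were lower and 0 higher, against 1.83% and 2.93% of all genes. The middle of the list thus moved far less than the neurofilament genes.

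Of 24 pan-neuronal markers 0 passed, with 1 higher and 7 lower at an unadjusted p under 0.05. At that unadjusted p, 10.5% of all genes were higher and 11.3% lower. The list median was 0.02. The median was 0.35 in family 1 and 0.60 in family 3, but −0.22 to −0.11 in the other 4. Without the 3 pools 6 members were lower and 0 higher, against 1.83% and 2.93% of all genes, at a median of −0.16. The SNARE gene snap25 (ENSDARG00000020609) averaged 3868 ± 736 normalized CPM in Hom pools and 5619 ± 497 in Het pools (−0.56 ± 0.14, edgeR adjusted p = 0.0563 with all libraries and 0.0042 without the 3 pools). Of 26 glutamatergic genes 0 passed with all libraries, and 1 was lower at an unadjusted p under 0.05. The median of 0.16 was 0.0006 without the 3 pools, where 3 were lower and 0 higher, against 1.83% and 2.93% of all genes. Within families it was 0.46 in family 1, 0.72 in family 3 and 0.15 in family 2, but −0.17 to −0.04 in families 4 to 6. Among 24 GABAergic neuron genes 2 were lower and 0 higher with all libraries, against 0.801% and 1.19% of all genes. Without the 3 pools 6 were lower and 0 higher, against 1.83% and 2.93%, with a median of −0.18 in both settings. The pair that fell with all libraries were calretinins, which buffer calcium. The first, calb2b, had 22.4 to 47.2 (median 39.4) normalized CPM in Hom pools, against 64.7 to 91.4 (median 72.9) in Het pools (−1.0 ± 0.14, edgeR adjusted p = 0.00318), and calb2 fell by 0.56 on the log2 scale. Neither overlapped between genotypes. Of 28 neuropeptide precursors 0 passed, with medians of −0.37 with all libraries and −0.14 without the 3 pools, and 8 were lower and 1 higher at an unadjusted p under 0.05.

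Of 18 myelin and oligodendrocyte genes 1 was higher and 1 lower, against 1.19% and 0.801% of all genes. Without the 3 pools 1 was higher and 2 were lower, against 2.93% and 1.83%. The list median was −0.19 with all libraries, −0.07 without the 3 pools and −0.02 in families 4 to 6. The receptor gpr17, a marker of oligodendrocyte precursors on their way to myelinating cells, had 6.08 to 14.4 (median 9.73) normalized CPM in Hom pools and 3.24 to 6.43 (median 5.11) in Het pools (1.0 ± 0.18, edgeR adjusted p = 0.0119). The fatty acid hydroxylase fa2h, which makes myelin lipids, was at 23.7 to 77 (median 55.3) in Hom pools, against 64.8 to 144 (median 112) in Het pools (−1.03 ± 0.18). Both pairs of ranges overlapped. The myelin protein gene mbpa averaged 7747 ± 3499.7 normalized CPM in Hom pools and 14707 ± 4586 in Het pools (−0.96 ± 0.28) and did not pass (edgeR adjusted p = 0.107). Its differences within families ran from −2.80 in family 3 to −0.14 in family 5. Among 28 radial glia and astroglia markers the intermediate filament gene nes was higher, at 53.4 to 111 (median 72.2) in Hom pools and 17.3 to 28.3 (median 23.6) in Het pools (1.73 ± 0.19, edgeR adjusted p = 4.86e-04). Its lowest Hom pool was well above its highest Het pool. The median of the list was −0.15 with all libraries and 0.02 without the 3 pools, and within family 3 it was −1.4.

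Genes of cholesterol synthesis were lower in Hom brains for 15 of 33 members and higher for 0, against 0.801% of all genes lower. The median log2 fold change was −0.73 with all libraries and −0.60 without the 3 pools. There 16 were lower and 0 higher, against 1.83% and 2.93% of all genes. The median within families was negative in 6 of 6, from −0.93 in family 3 to −0.39 in family 2. Among the early enzymes the log2 fold change was −0.79 for acat2, −0.74 for mvd, −0.92 for idi1 and −1.1 for fdps. Squalene epoxidase, sqle (ENSDARG00000079946), had 1.64 to 7.95 (median 3.5) normalized CPM in Hom pools and 5.48 to 22.4 (median 17.9) in Het pools (−2.15 ± 0.25, edgeR adjusted p = 6.49e-04). The ranges met through the Het pool of family 4, the lowest at 5.48. Lanosterol synthase, lss, which closes the sterol rings, was at 2.91 to 6.91 (median 3.36) in Hom pools, against 7.17 to 15.8 (median 13.7) in Het pools (−1.72 ± 0.18, edgeR adjusted p = 4.55e-04), with no overlap.

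Transcripts for the late steps from lanosterol to cholesterol fell as well. The demethylase cyp51a1 had 17 to 38.2 (median 21.2) normalized CPM in Hom pools and 47.4 to 88.1 (median 70.7) in Het pools (−1.52 ± 0.17, edgeR adjusted p = 5.97e-04). Its ranges did not overlap, nor did those of msmo1 (−1.86), sc5d (−1.39) and tm7sf2 (−0.60). The ranges of nsdhl (−1.39) and ebp (−0.92) did. The sterol sensor insig1, itself a target of the sterol-regulated transcription factors, was at 37.2 to 62.5 (median 43.3) in Hom pools, against 69.7 to 121 (median 85.8) in Het pools (−1.0 ± 0.13). Without the 3 pools ebp, mvd and tm7sf2 kept their direction but did not pass, with edgeR adjusted p of 0.0672, 0.0818 and 0.0937. The summed level of the list went the other way in 1 pool, at 1996 normalized CPM in the Hom pool of family 3, while the other Hom pools ranged over 559.6 to 742.3 and Het pools over 796.5 to 1045. In that pool the regulator srebf2 held 838 and the receptor ldlrb 333, both chosen after their values were seen. Of 21 genes of fatty acid synthesis and desaturation 0 passed with all libraries, with a median of 0.04. At an unadjusted p under 0.05, 2 were higher and 4 lower, against 10.5% and 11.3% of all genes. Without the 3 pools 1 was higher and 3 were lower, against 2.93% and 1.83% of all genes, and the median turned to −0.14.

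**Figure D4:**
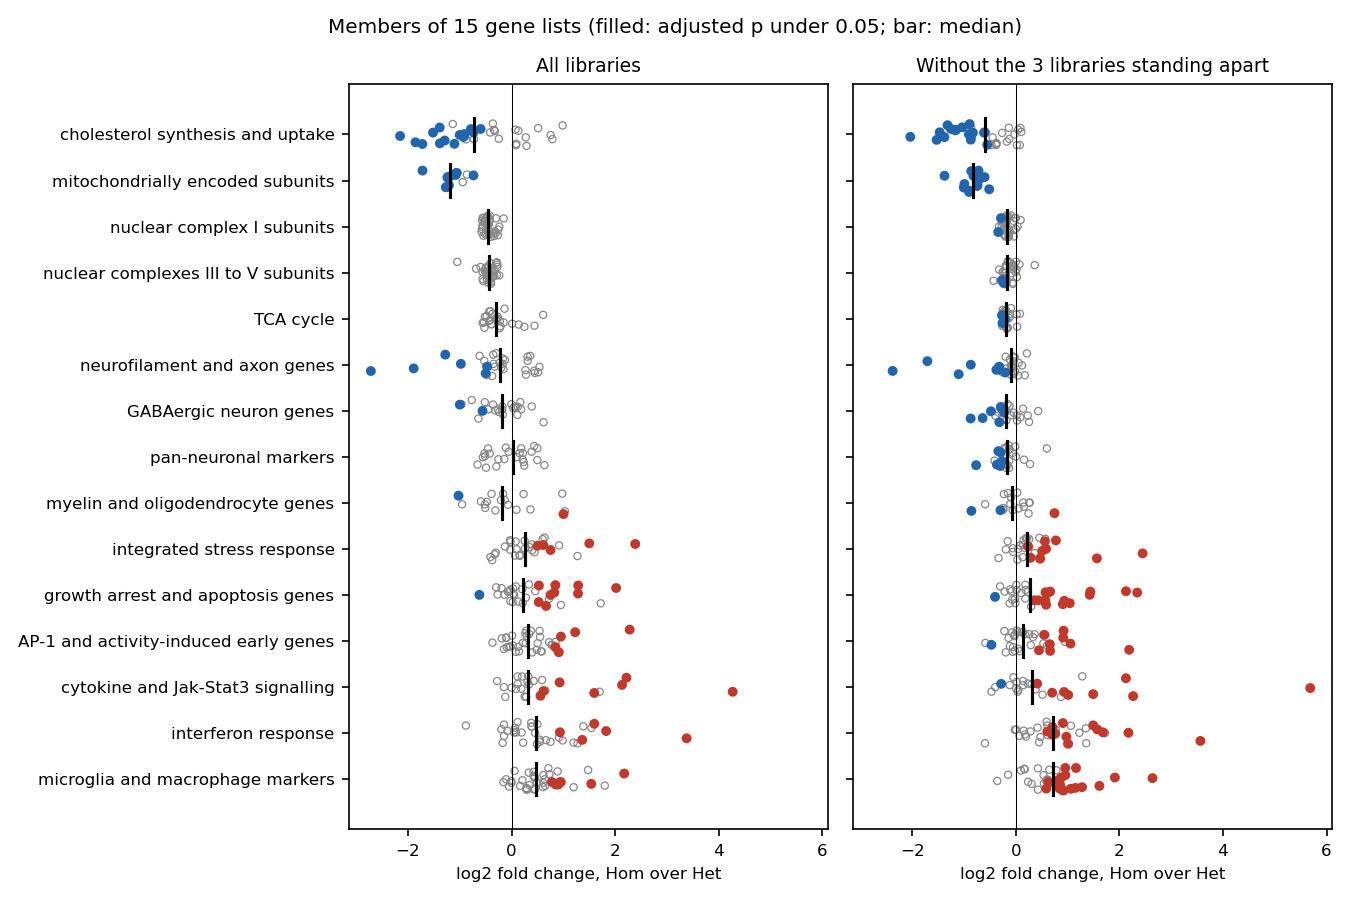
Log2 fold change of Hom over Het (horizontal axes) for each tested member of 15 gene lists (rows), with all libraries on the left and without the 3 pools that stood apart on the right. Filled red and blue points passed the test, grey rings did not, and black bars are medians, which lie at −0.73 and −0.60 for cholesterol synthesis and at −1.19 and −0.82 for the mitochondrially encoded subunits.

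Transcripts made from mitochondrial DNA were lower in Hom brains. The 13 mitochondrially encoded subunits of the respiratory chain gave 5.88, 6.19, 1.93, 5.18, 5.76 and 6.08% of all counts in the Hom pools of families 1 to 6. In Het pools they gave 11.8, 9.59, 11.9, 9.54, 8.92 and 10.2%. Every Hom share was below every Het share, and the Hom pool of family 3 was far below the rest. The means were 5.17 ± 1.63% in Hom pools, 10.3 ± 1.25% in Het pools and 9.53 ± 0.62% in WT pools (SD, n = 6 each), and Hom was at 5.82 ± 0.396% without family 3 (n = 5). The mean log2 difference of Hom minus Het within families was −1.09 ± 0.77 (SD), lower in 6 of 6. An exact two-sided permutation of signs gave p = 0.03125, the smallest that 6 families allow. Without families 1 and 3 the difference was −0.72 ± 0.12, lower in 4 of 4, and the exact test cannot go below 0.125 there.

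**Figure D5:**
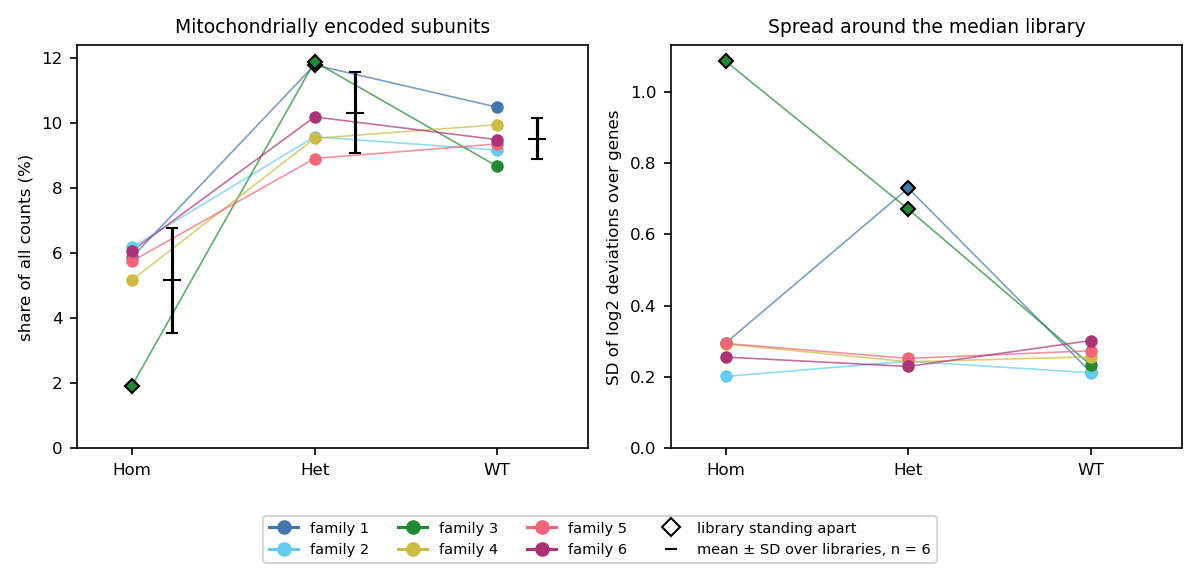
Left, the share of all counts from 13 mitochondrially encoded subunits in percent, and right, the SD over 12976 genes of log2 deviations from the median library, for each pool by genotype. Lines join families, diamonds mark the 3 pools that stood apart, and the bars on the left are mean ± SD over 6 libraries, at 5.17% for Hom and 10.3% for Het.

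Gene by gene, 11 of the 13 were lower and 0 higher, against 0.801% and 1.19% of all genes, with a median of −1.19. All 13 were lower without the 3 pools, against 1.83% of all genes there, with a median of −0.82. In the fit of the 12 Hom and Het libraries alone none of the 13 passed, and the smallest edgeR adjusted p was 0.0896, for mt-nd3. The complex I subunit mt-nd3 had 122 to 508 (median 459) normalized CPM in Hom pools and 1173 to 1557 (median 1237) in Het pools (−1.72 ± 0.23, edgeR adjusted p = 0.00224). In family 3 the Hom pool held 122, against 423 to 508 in the other Hom pools, and without the 3 pools the fold change was −1.38. The other complex I subunits that fell ran from −1.27 for mt-nd2 to −0.74 for mt-nd5. Of complex IV, mt-co1 was at 8582 to 17964 (median 15791) in Hom pools, against 26970.0 to 41076 (median 33417) in Het pools (−1.24 ± 0.18). The log2 fold change was −1.23 for mt-co2 and −1.19 for mt-co3. The complex III subunit mt-cyb fell by 1.07 on the log2 scale. The ATP synthase subunits mt-atp6 (−0.94 ± 0.27) and mt-atp8 (−0.86 ± 0.25) did not pass with all libraries. Of the 11 that fell, mt-nd5 alone overlapped between genotypes, through the Hom pool of family 3, where it was highest of 6 while the other subunits that fell were lowest there. Over all genes tested, 1.96% lay apart and lower in Hom.

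With all libraries, 9073 of the 20353 genes tested had negative fold changes. All 38 nuclear complex I subunits and all 39 subunits of complexes III to V had negative fold changes there, with medians of −0.46 and −0.44, and 0 of either list passed. At an unadjusted p under 0.05, 28 and 25 of them were lower, against 11.3% of all genes. Without the 3 pools the medians were −0.18 and −0.17, with 2 lower in each list, against 1.83% of all genes. The within-family median of the complex I list was −1.63 in family 3, −0.47 in family 1 and −0.36 to −0.11 in the others. The subunit ndufv2 had 34.4 to 83.6 (median 77.1) normalized CPM in Hom pools and 93.5 to 115 (median 98.8) in Het pools (−0.55 ± 0.15, edgeR adjusted p = 0.0897). Its ranges did not overlap, although it did not pass with all libraries, and its adjusted p was 0.0288 without the 3 pools. Of 25 TCA cycle genes 0 passed, with a median of −0.31 and 18 lower at an unadjusted p under 0.05. Without the 3 pools 5 of the TCA cycle genes were lower, against 1.83% of all genes.

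Of 23 genes of mitochondrial fusion, fission and inner membrane shape, mfn2 alone passed, and the fission enzyme gene dnm1l averaged 120.2 ± 11.5 normalized CPM in Hom pools and 148 ± 10.05 in Het pools (−0.30 ± 0.09, edgeR adjusted p = 0.0992). Of 22 transport and mitophagy genes the autophagy receptor sqstm1 was higher, with 127 to 264 (median 141) in Hom pools and 59.5 to 86.7 (median 77.6) in Het pools (1.14 ± 0.17, edgeR adjusted p = 0.00373). Its ranges did not overlap. Without the 3 pools 3 members were higher and 1 lower, against 2.93% and 1.83% of all genes. With all libraries, 1.19% of all genes were higher and 0.801% lower, which stands beside each list of this paragraph. Of 17 mitochondrial protease and chaperone genes htra2 (ENSDARG00000069909) was higher (0.53 ± 0.12), and its value is uncertain, since the symbol is shared by many gene IDs between which reads may have been divided. Of 27 oxidative stress genes the regulator nfe2l2b was higher (2.16 ± 0.37) and nqo1, a target of that family in mammals, lower (−0.93 ± 0.20). Of the same 27 genes 2 were higher and 1 lower without the 3 pools, against 2.93% and 1.83% of all genes. Of 23 cytosolic heat shock genes and 24 genes that respond to unfolded proteins in the endoplasmic reticulum 0 passed with all libraries. At an unadjusted p under 0.05, 1 heat shock gene was higher and 5 lower, against 10.5% and 11.3% of all genes. For both lists, the medians of −0.24 and −0.12 were −0.74 and −0.69 within family 3, and −0.045 and 0.05 without the 3 pools. There 1 heat shock gene was higher and 1 lower, and 1 gene of the endoplasmic reticulum list was higher, against 2.93% and 1.83% of all genes.

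Of 40 genes of glycolysis and glucose transport 4 were higher and 0 lower, against 1.19% and 0.801% of all genes. Even so, the median was −0.35. The transporter slc2a1 (ENSDARG00000007412) had 20.9 to 37.4 (median 24.3) normalized CPM in Hom pools and 5.76 to 8.32 (median 7.13) in Het pools (1.85 ± 0.14, edgeR adjusted p = 5.79e-05). Hexokinase 2, hk2, which traps glucose in the cell, was at 7.95 to 17.9 (median 9.41) in Hom pools, against 2.54 to 4.04 (median 3.82) in Het pools (1.58 ± 0.19). For both genes all Hom pools lay above all Het pools. The regulator pfkfb3 (0.89) and the second slc2a1 (ENSDARG00000001437, 0.53) rose by less. Leaving out the 3 pools gave 5 higher and 9 lower, against 2.93% and 1.83% of all genes, so members of the list moved both ways. Of 24 hypoxia genes 2 were higher and 2 lower, against 1.19% and 0.801% of all genes. Those higher were igfbp1 (1.73 ± 0.20) and ndrg1 (ENSDARG00000032849, 1.12 ± 0.21), and those lower were vegfa (ENSDARG00000034700, −0.55 ± 0.09) and egln3 (−0.95 ± 0.16). The hypoxia count was 3 higher and 2 lower without the 3 pools, against 2.93% and 1.83% of all genes.

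Further genes of small p belonged to none of the lists above. The gene ociad2 had 5.57 to 18.2 (median 8.37) normalized CPM in Hom pools and 0.08 to 0.618 (median 0.261) in Het pools, or 1676 and 48 counts over 6 libraries each (5.01 ± 0.55, edgeR adjusted p = 4.86e-04). The metalloprotease adamts8 (ENSDARG00000007709) was at 6.05 to 28.5 (median 20.4) in Hom pools, against 1.41 to 2.7 (median 1.9) in Het pools (3.14 ± 0.30). The transglutaminase tgm2l was at 37.8 to 90.04 (median 42) in Hom pools, against 7.25 to 14.6 (median 11.7) in Het pools (2.24 ± 0.23). None of the 3 overlapped. The tetraspanin tspan36 (1.36 ± 0.15) and the scaffold gene ush1c (2.2 ± 0.24) were higher too. On the lower side, the elongation factor eef1a2, used in neurons and muscle, had 56.1 to 89.3 (median 67.5) in Hom pools and 139 to 174 (median 160.0) in Het pools (−1.17 ± 0.12, edgeR adjusted p = 3.45e-04). The protease gene tmprss4b (−1.68 ± 0.15) and the sodium pump regulator fxyd7 (−1.09 ± 0.11) fell as well, and none of these lower genes overlapped between genotypes.

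Lists for photoreceptor and pineal genes, for muscle, oocyte and pituitary genes, and for cycling and rhythmic cells held 0 genes past the test with all libraries. These were 18 photoreceptor and pineal transcripts (median 1.68), 18 skeletal muscle transcripts (−1.26), 5 oocyte transcripts of 23 matched, 5 pituitary hormone genes of 12 matched, 22 proliferation genes (0.12) and 30 circadian clock genes (0.11). Photoreceptor and pineal transcripts summed to 44.6 to 178 normalized CPM in Hom pools, 47.6 to 78.4 in Het pools and 50.7 to 270.3 in WT pools. In families 4 to 6, where 1.55% of all genes were higher, 5 of these photoreceptor and pineal transcripts were higher in Hom pools. With all libraries 9 were higher at an unadjusted p under 0.05, against 10.5% of all genes. Within families their median was −0.22 in family 2, −0.60 in family 3 and 0.82 to 1.94 in the others. Over all libraries it was 0.25 for Hom minus WT and −1.73 for Het minus WT. Of the proliferation genes 1 was higher without the 3 pools and 1 in families 4 to 6, against 2.93% and 1.55% of all genes. The muscle median was −0.35 without the 3 pools. The part of these transcripts in the results above was not tested.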

How the data were processed

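Poly(A) RNA from pools of whole brains was made into libraries with the NEBNext Ultra kit, per the labels. Reads were aligned with STAR 2.7.0a to GRCz11 and counted with featureCounts of Subread 1.5.2, per the submitters' processing notes. Which annotation release was counted, whether strand was used and how multi-mapping reads were treated is not given in the sources used here. The authors deposited 1 table of raw counts for 32057 genes in 18 libraries, with 0 columns unused, and 28988 of the gene IDs matched a symbol.

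From those counts, genes were kept by edgeR's expression filter (minimum count 10, minimum total 15), scaled by trimmed mean of M values and tested with edgeR's quasi-likelihood test on all 18 libraries, with genotype and family as terms and Benjamini-Hochberg adjustment (threshold 0.05, prior count 0.125; R 4.3.3, edgeR 4.0.16). Family is a block because siblings of 1 mating share their number in the labels. Deviations of same-family Hom and Het pools correlated at 0.54, 0.00, −0.58, 0.11, 0.03 and −0.27 over families 1 to 6. Within-family differences and library deviations used log2(normalized CPM + 0.5), the deviations over genes with a median of at least 5 normalized CPM. The share of counts from mitochondrially encoded genes was tested by exact permutation of signs over families. Each value is a pool, so p-values measure the spread between pools. The procedure was tested on simulated data. The simulated counts had a common spread, no family effects and no pools standing apart, so they do not show how it behaves with such pools.

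The genes named are mfn2, the 12 higher and 12 lower genes of smallest p, and the 3 members of smallest p in each list. The 12 higher and 12 lower were taken from genes that passed and moved the same way in at least 5 of 6 families. Genes with a clone name for a symbol were left out of those 12 and 12. Members of the lists past the test, and genes said to be so chosen, were named after their values were seen. Some genes that these rules name are not reported here, though the list counts include them. The comparison and its 40 gene lists were chosen with earlier results of these data known. Of 1081 list entries 998 were matched by symbol, 247 of them after a paralog letter was removed, and a list's count is of its tested gene IDs. Alternatives were DESeq2 1.42.0, limma 3.58.1 with voom and sample quality weights, other size factors, no filter, no family block, and fits without single pools, families or the 3 pools that stood apart.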

Additional observations from a re-analysis of the deposited data

Results flagged for a closer look

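Within each genotype, the highest or lowest of 6 pools was called outlying where its gap to the nearest other pool, relative to the range of the 6 on the log2 scale, was over Dixon's 95% critical value. Of 364 sets examined, 51 held such a pool, where chance gives about 5%. The Hom pool of family 3 accounted for 38 of the 51. Values are in normalized CPM.

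In the Hom pool of family 3, mitochondrially encoded genes were lowest of 6, at 122 for mt-nd3, 781 for mt-nd2, 302 for mt-nd6, 62.3 for mt-nd4l, 643 for mt-nd4, 779 for mt-nd1, 1908 for mt-co2, 1774 for mt-co3 and 1438 for mt-cyb. The share of counts from these genes was 1.93% there. Nuclear genes of the respiratory complexes and the TCA cycle were lowest there too, at 44.1 for sdhd (ENSDARG00000030139), 158 for pdha1a, 14.7 for ndufa7, 34.4 for ndufv2, 33.6 for ndufab1, 113 for uqcrfs1 and 148 for atp5mc3b. Neuronal and axonal genes lowest in that pool were at 22.4 for calb2b, 11.2 for calb1, 2512 for snap25 (ENSDARG00000020609), 272 for sypb, 251 for eno2, 22.6 for glrb (ENSDARG00000052782) and 210.3 for map1b. The remaining low values were 97.5 for hspa4l, 75.3 for hspa4 (ENSDARG00000018989), 50.8 for clpx (ENSDARG00000029063), 49.9 for sod2, 8.15 for tifa and 11.8 for tigarb. Highest of 6 in that pool were 15.3 for tmprss4b, 103 for mars1, 320.1 for grin2b (ENSDARG00000030376), 15.2 for csf3r, 17 for buc, 24.9 for zp3b, 2671 for mt-nd5 and 12.1 for malt1.

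Other pools stood out for fewer genes. In family 1, the Hom pool was highest at 37.4 for slc2a1 (ENSDARG00000007412). In family 2, the Hom pool was highest at 250.2 for nefla and 6.91 for lss. In family 2, the Hom pool was lowest at 8.28 for fn1 (ENSDARG00000019815). In family 4, the Hom pool was highest at 79.3 for vars1. In family 6, the Hom pool was highest at 10 for dusp2. In family 1, the Het pool was highest at 1557 for mt-nd3 and 57.8 for yme1l1 (ENSDARG00000104401). In family 2, the Het pool was lowest at 28.9 for sdhd (ENSDARG00000055712). In family 3, the Het pool was lowest at 2.54 for hk2. In family 4, the Het pool was lowest at 7.17 for lss, 5.48 for sqle (ENSDARG00000079946) and 2.85 for nsdhl. What sets these pools apart was not tested.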

How the results depend on the processing

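The fold change of mfn2 kept its direction and passed under all 26 alternatives run. The count of genes past the test, 406 as reported with 243 higher and 163 lower in Hom, was 1626 (789 and 837) with DESeq2, 1644 (907 and 737) with limma voom and sample quality weights, 46 (33 and 13) with the 12 Hom and Het libraries alone, and 981 (604 and 377) without the 3 pools that stood apart. Without a filter on low counts it was 297, with 198 higher and 99 lower. Leaving out each pool or each family in turn gave 127 to 662 genes, 83 to 383 higher and 44 to 281 lower. By family, the count was 169, 178, 645, 127, 135 and 208 without families 1 to 6. Other size factors gave 440, with 260 higher and 180 lower. The causes of these shifts were not tested.

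Without the replicate block of family, 423 genes passed, 239 higher and 184 lower, and the mitochondrial share gave an exact permutation p of 0.002165. The log2 difference of that share was −0.72 without families 1 and 3 and −1.18 to −0.78 without single families, where fewer families cannot reach the threshold.

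Of the 185 other genes examined singly, 116 passed as reported. Of these 0 reversed under any alternative, 27 passed under every one and 112 passed without the 3 pools, the exceptions being ebp, mvd, tm7sf2 and traf3. With the 12 Hom and Het libraries alone, 89 of the 116 kept their direction but did not pass. Reversals were seen for 6 genes that did not pass as reported. In families 4, 5 and 6 the log2 fold change was −0.0022 for tefb, −0.041 for grin2b (ENSDARG00000030376) and −0.22 for buc. For zp3b it was −0.26 without the 3 pools, −0.24 in families 4 to 6 and −0.29 with quality weights, and −0.24 to 0.64 with pools or families left out in turn. The corresponding ranges were −1.32 to 0.079 for lhb and −1.21 to 0.30 for cga (ENSDARG00000040479). Genes of a few counts per library, such as il11b, are limited by depth.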

Other observations

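Further gene groups were assembled after the values of the whole table had been seen, so their counts describe these libraries and support nothing. Complement components, the plasma proteins that tag and lyse targets, were higher in Hom brains for 4 of 13 members and lower for 0. Over all genes, 1.19% were higher and 0.801% lower. The opsonin precursor c4b had 13 to 23.6 (median 17.6) normalized CPM in Hom pools and 1.1 to 4.69 (median 2.87) in Het pools (2.82 ± 0.32, edgeR adjusted p = 4.95e-04). The terminal component c6.1 was at 3.13 to 8.17 (median 4.66) in Hom pools, against 0.0363 to 0.875 (median 0.55) in Het pools (3.56 ± 0.45), or 823 counts over 6 Hom libraries and 72 over 6 Het libraries. Both were clear of overlap, as were c4 (1.25) and c7b (0.90). Without the 3 pools that stood apart, 7 members were higher and 0 lower, against 2.93% and 1.83% of all genes.

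Interleukin-6 family ligands and receptors were higher for 4 of 11 members, against 1.19% of all genes. The ligand clcf1 had 170 counts over 6 Hom libraries and 11 over 6 Het libraries, at 0.596 to 2.02 normalized CPM in Hom pools and 0 to 0.12 in Het pools. The receptor gene lifrb was at 1.34 to 4.47 (median 1.92) in Hom pools, against 0.685 to 1.38 (median 1.03) in Het pools (1.1 ± 0.21), and il11b and il6st are given above. Of 31 NF-kB signalling genes 6 were higher and 0 lower, against 1.19% and 0.801% of all genes. They were the adaptor tifa (1.08), malt1 (1.32), the inhibitor nfkbiaa (0.75), traf3 (0.64), nfkb2 (0.43) and map3k14a (0.35). Without the 3 pools 7 of the NF-kB genes were higher and 0 lower, against 2.93% and 1.83% of all genes.

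On the lower side, hapln2, which links proteoglycans to hyaluronan around axons, had 2.49 to 11.3 (median 6.05) normalized CPM in Hom pools and 15.8 to 23.8 (median 21.1) in Het pools (−1.78 ± 0.25, edgeR adjusted p = 0.00318). Its relative hapln4 was at 10.7 to 35.8 (median 21.8) in Hom pools, against 31.8 to 72.6 (median 54.2) in Het pools (−1.28 ± 0.23). The glycine receptor subunit glrb (ENSDARG00000052782) was at 22.6 to 44.7 (median 40.3) in Hom pools, against 59.4 to 79.6 (median 71) in Het pools (−0.90 ± 0.15), and the neuronal glycine transporter slc6a5 at 21.7 to 85.1 (median 37.8) in Hom pools, against 60.1 to 116 (median 86.4) in Het pools (−1.11 ± 0.25). Ranges of hapln2 and glrb (ENSDARG00000052782) did not overlap between genotypes, while those of hapln4 and slc6a5 did. Of 8 genes of the ifi27 family 3 were higher, against 1.19% of all genes: ifi27.1 (1.43), ifi27.2 (1.97) and ifi27.4 (1.02). These are uncertain because near-identical copies could divide reads.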
